A study of Mus musculus with 7 samples.

Results

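The microRNAs of the miR-17, miR-20, miR-93 and miR-106 seed family were followed on 7 one-colour microarrays of mouse CD4 T cells. Members were chosen by sequence alone. A probe was a member where bases 2 to 8 of its target, the seed, read AAAGTGC as in the miR-93-5p target. This held for 15 of the 1874 probes on the array. Of these, 6 matched a mouse mature miRNA over the whole target, 3 matched the start of one at another length, and 6 matched none in the RefSeq table.

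The study set antigen-experienced DO11.10 CD4 T cells beside naive ones. DO11.10 T cells carry a transgenic T-cell receptor for an ovalbumin peptide, and the strain of all mice was Balb/c, aged 6 to 8 weeks. The sOVA host group (3 arrays) held CD44 high cells sorted 5 days after DO11.10 Rag2-/- CD4 cells were transferred into sOVA mice. The name sOVA is used in this system for mice that express a soluble form of ovalbumin. The WT host group (2 arrays) held CD44 high cells sorted 5 days after the same transfer into WT Balb/c mice. Both kinds of host were immunized 24 hours after transfer with dendritic cells that had been activated with LPS and loaded with ovalbumin peptide. The naive group (2 arrays) came from DO11.10 Rag2+/+ mice without any transfer and was sorted as CD25- and CD44 low. Naive cells thus differed from both host groups in Rag2 genotype, transfer and sorting gate as well as in antigen exposure, and these cannot be told apart. The sample titles word the immunization differently for the 2 kinds of host, so host and immunization cannot be told apart either. The title given to the series names in vitro activation, but the protocol is one of transfer into live hosts. Spleens and lymph nodes of several mice were pooled. The labels do not say that replicates are separate pools, and the spread behind each p-value may therefore be technical only.

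A miRNA finds its target mRNAs mainly through its seed, so miRNAs with one seed share many predicted targets. In mice the family is encoded in 3 clusters, named miR-17 to miR-92, miR-106a to miR-363 and miR-106b to miR-25. The first is known for promoting lymphocyte proliferation and survival.

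The mature sequences show how little separates the members, and they are given 5′ to 3′ from RefSeq (GRCm38.p6) with the seed in capitals. The miR-17 to miR-92 cluster on chromosome 14 encodes miR-17-5p (chr14:115043684-115043706, plus strand) and miR-20a-5p (chr14:115044183-115044205, plus strand). The miR-106b to miR-25 cluster lies within the protein-coding gene Mcm7 and encodes miR-93-5p (chr5:138165574-138165596, minus strand) and miR-106b-5p (chr5:138165787-138165807, minus strand). The miR-106a to miR-363 cluster on the X chromosome encodes miR-20b-5p (chrX:52742159-52742181, minus strand) and miR-106a-5p (chrX:52742541-52742563, minus strand).
miR-17-5p: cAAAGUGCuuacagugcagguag
miR-20a-5p: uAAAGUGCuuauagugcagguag
miR-106a-5p: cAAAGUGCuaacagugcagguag
miR-20b-5p: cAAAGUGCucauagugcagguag
miR-93-5p: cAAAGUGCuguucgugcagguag
miR-106b-5p: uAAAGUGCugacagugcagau
A seventh mouse miRNA with the seed, miR-6383, had no probe.

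Counted from the 5′ end of the target and written as DNA, miR-106a-5p differs from miR-17-5p by T10A alone and miR-20a-5p by C1T and C12T. The difference of miR-20b-5p is T10C and C12T. miR-106b-5p differs over their 21 shared bases by C1T, T10G and G20A, and miR-93-5p by T10G, A11T, C12T and A13C. Some detected probes had no mouse match, and 3 of their targets are shown because they separate from their nearest neighbours at 1 or few bases.
UC1005011: aAAAGTGCttacagtgcaggtag
UC1004812: cAAAGTGCtcacagtgcaggtag
UC1004985: aAAAGTGCtgtttgtgcaggta
UC1005011 differs from the miR-17-5p target by C1A and UC1004812 by T10C. Whether one miRNA also binds the probe of a relative this close was not tested, so the 15 probes may measure fewer independent RNAs.

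Every array read 7 spots per probe. Signal is given on a log2 scale relative to the array's 75th percentile over the 253 probes that every array detected, so 0 is that percentile. Levels of different probes depend on the probe and are not compared. The 75th percentile was 9860, 11114 and 2729 signal units in sOVA host cells, 9281 and 3591 in WT host cells, and 11868 and 15743 in naive cells. sOVA host replicate 3 and WT host replicate 2 were thus the dimmest arrays, and between 309 and 467 probes were detected per array. sOVA host replicate 3 stood apart from its group. Over the 342 tested features, the SD of its log2 differences from the other sOVA host arrays was 1.30 and 1.53, against 0.70 between those arrays, 0.77 between the WT host arrays and 0.60 between the naive arrays. miR-155-5p, a miRNA of activated T cells, stood at 1.39, 1.81 and -0.95 in sOVA host cells, -0.77 and -0.57 in WT host cells, and -3.19 and -3.41 in naive cells. miR-146a-5p, another activation miRNA, stood at 1.70, 1.89 and -0.38 in sOVA host cells, -0.88 and -0.22 in WT host cells, and -2.54 and -3.49 in naive cells. miR-150-3p stood at -6.27, -5.69 and -2.53 in sOVA host cells, -2.14 and -2.50 in WT host cells, and -2.62 and -2.65 in naive cells. For all 3, sOVA host replicate 3 thus lay nearer to the WT host arrays than to its own group, and its part in the family's values was not tested beyond leaving it out. For miR-21a, also an activation miRNA, and for miR-142a, the array nearest to it was one of its own group. miR-21a-5p stood at 3.86, 3.87 and 3.36 in sOVA host cells and 4.34 and 4.12 in WT host cells. miR-142a-5p stood at 1.33, 0.19 and -0.08 in sOVA host cells and 0.91 and 0.45 in WT host cells. Without sOVA host replicate 3 the limma calls over all features numbered 126 for sOVA host against naive cells, 158 for WT host against naive cells and 65 between hosts, against 72, 64 and 0 with it. No spot was saturated. miR-142a was well above background on every array. miR-451a, an erythroid miRNA, was well above background on every array and highest on sOVA host replicate 3, where its 2 probes stood at 0.34 and 0.94. On the other arrays they lay between -4.75 and -0.97. The erythroid miR-144 and the neural miR-9 were not well above background on any array. Myeloid miR-223-3p (probe UC1005308) was highest in naive cells, at -3.04 and -2.80. Its levels were -6.60, -5.22 and -4.99 in sOVA host cells and -5.59 and -6.34 in WT host cells. The epithelial miR-205-5p was well above background on 2 sOVA host arrays, at -4.87 and -4.08, and on no other array. The epithelial miR-200a-3p and miR-200b-3p were so on both naive arrays and on no host array. Muscle miR-133b-3p was so on 1 sOVA host array and endothelial miR-126a-3p on 1 naive array. The part of other cells in the family's values was not tested.

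Of the 15 family probes, 13 were well above background on every array, and UC1005819 and UC1005841 on none. The processed signal of the 13 detected probes ran from 358 to 23677. Probes that share a start and differ only in length were merged, which left 11 family features, 9 of them tested. Spots of one probe differed little within an array, with an SD of at most 0.16 log2 units over the family's detected probes.

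None of the 9 family features passed the test (limma across all 342 features on 7 arrays, Benjamini-Hochberg adjusted p under 0.05) in any of the 3 comparisons. Over all features 21.1% passed for sOVA host against naive cells, 18.7% for WT host against naive cells and 0% for sOVA host against WT host. At an unadjusted p under 0.05 the family counts were 1, 3 and 0 of 9, where 43%, 36.8% and 12% of all features passed. A p that misses the threshold does not show that the levels were alike. The 95% intervals given below for some members hold for the main scaling only. They rest on a spread that may be technical only.

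miR-93-5p (probe UC1004986), from the miR-106b to miR-25 cluster, gave the lowest adjusted p of the family in WT host cells. Its level was 0.39, 0.42 and 0.44 in sOVA host cells, 0.50 and 0.74 in WT host cells, and -0.10 and -0.08 in naive cells. Every host array lay above both naive arrays. The log2 difference was 0.50 ± 0.23 (SE) for sOVA host minus naive, with a 95% interval of -0.05 to 1.06 (limma adjusted p = 0.149). For WT host minus naive it was 0.70 ± 0.25, with an interval of 0.09 to 1.31 (limma adjusted p = 0.10). Between arrays of the same row of the slide, sOVA host minus naive was 0.50 in row 1 and 0.52 in row 2, and WT host minus naive 0.59 and 0.81. miR-93-5p passed for WT host cells once sOVA host replicate 3 was left out, which left the difference at 0.70 (limma adjusted p = 0.0329). In that setting 158 of all 342 features passed, against 64 with the array.

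Its cluster neighbour miR-106b-5p had levels of 0.39, -0.03 and -0.55 in sOVA host cells, 0.35 and 0.23 in WT host cells, and 0.10 and 0.08 in naive cells. The sOVA host arrays spanned the naive ones. sOVA host minus naive was -0.15 ± 0.33 (limma adjusted p = 0.746) and WT host minus naive 0.21 ± 0.36 (limma adjusted p = 0.69). The first of these became 0.10 without sOVA host replicate 3, the lowest array.

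miR-20a-5p was the family member with the lowest difference in both host groups. It stood at 0.04, -0.21 and -0.25 in sOVA host cells, 0.18 and 0.58 in WT host cells, and 0.57 and 0.59 in naive cells. All sOVA host arrays lay below both naive arrays, while the WT host arrays overlapped them. sOVA host minus naive was -0.72 ± 0.26, with a 95% interval of -1.34 to -0.10 (limma adjusted p = 0.0852). WT host minus naive was -0.20 ± 0.28, with an interval of -0.88 to 0.48 (limma adjusted p = 0.618). Within slide rows sOVA host minus naive was -0.65 and -0.84, and WT host minus naive -0.38 and -0.01. With both dim arrays left out, which left a single WT host array, sOVA host minus naive was -0.66.

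miR-17-5p, the family's namesake and the neighbour of miR-20a-5p, had levels of -0.24, -0.31 and -0.17 in sOVA host cells, 0.06 and 0.49 in WT host cells, and -0.29 and -0.18 in naive cells. The sOVA host and naive arrays overlapped, with group means of -0.24 each and a 95% interval of the difference from -0.61 to 0.61 (limma adjusted p = 0.9999). Both WT host arrays lay above the naive ones, by 0.51 ± 0.27 on average (limma adjusted p = 0.23).

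miR-106a-5p, from the X-linked cluster, stood at -0.98, -1.05 and -0.89 in sOVA host cells, -0.70 and -0.32 in WT host cells, and -1.19 and -1.14 in naive cells. Every host array was above both naive arrays. sOVA host minus naive was 0.19 ± 0.24 (limma adjusted p = 0.564) and WT host minus naive 0.66 ± 0.27 (limma adjusted p = 0.13). Its neighbour miR-20b-5p stood at -0.73, -0.85 and -0.73 in sOVA host cells, -0.39 and 0.08 in WT host cells, and -0.52 and -0.50 in naive cells. sOVA host arrays were below and WT host arrays above the naive ones, by -0.25 ± 0.25 (limma adjusted p = 0.474) and 0.36 ± 0.28 (limma adjusted p = 0.375). The 21-base probe of miR-20b-5p, UC1004817, lay below the naive arrays in both host groups. Tested by itself, it gave -0.86 ± 0.30 in sOVA host cells (limma adjusted p = 0.0735). In WT host cells it gave -0.58 ± 0.32 (limma adjusted p = 0.235), the opposite direction to the 23-base probe.

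Among the probes with no mouse match, UC1004985 differs from the miR-17-5p target by C1A, T10G, A11T, C12T and A13T. It shares T10G, A11T and C12T with miR-93-5p, which has A13C and no change at base 1. Whether miR-93-5p also binds this probe was not tested. UC1004985 stood at -2.48, -2.60 and -2.93 in sOVA host cells, -2.66 and -2.61 in WT host cells, and -3.13 and -3.19 in naive cells. No host array overlapped the naive ones. sOVA host minus naive was 0.49 ± 0.25 (limma adjusted p = 0.191), and it passed at 0.62 without sOVA host replicate 3 (limma adjusted p = 0.0463). In that setting 126 of all 342 features passed, against 72 with the array. WT host minus naive was 0.53 ± 0.28 (limma adjusted p = 0.22).

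UC1005011, 1 base from miR-17-5p, stood at -0.37, -0.45 and -0.23 in sOVA host cells, -0.06 and 0.43 in WT host cells, and -0.40 and -0.36 in naive cells. UC1004812 stood at -0.87, -0.90 and -0.74 in sOVA host cells, -0.54 and -0.09 in WT host cells, and -0.99 and -1.005 in naive cells. For both, the WT host arrays lay above the naive ones. The sOVA host arrays of UC1004812 also lay above the naive arrays, with a difference of 0.16 ± 0.25 (limma adjusted p = 0.655), whereas those of miR-20b-5p lay below them. WT host minus naive was 0.56 ± 0.29 for UC1005011 (limma adjusted p = 0.209) and 0.68 ± 0.28 for UC1004812 (limma adjusted p = 0.13).

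As a group, the family had a median log2 difference of 0.03 for sOVA host minus naive, against 0.11 over all features, with members from -0.72 to 0.50. Arrays of the groups did not overlap for 4 higher and 2 lower members of 9, where 32.2% of all features were higher and 29.5% lower without overlap. For WT host minus naive the family median was 0.53, against 0.27 over all features, and members ran from -0.20 to 0.70. Here 8 of 9 were higher without overlap, where 44.4% of all features were. Each feature is represented by its brightest probe, and shorter probes of the same start differed. WT host minus naive was -0.15 for the 22-base miR-17-5p probe, -0.16 for the 22-base form of UC1005011 and -0.58 for UC1004817. sOVA host minus naive was -0.40, -0.40 and -0.86 for these probes. For sOVA host minus WT host the family median was -0.51, against -0.15 over all features, and members ran from -0.61 to -0.03. All 9 differences were negative and 7 lay without overlap, where 17.8% of all features were lower without overlap. The largest of these, for miR-20b-5p, had an adjusted p of 0.41 by limma. These 3 comparisons share their arrays.

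These directions depended on the scaling. In one alternative the 75th percentile was taken over all probes, detected or not. Between 309 and 467 of the 1874 probes were detected per array, so this percentile lay at or below the edge of detection. The median of all features moved to -0.70 for sOVA host minus naive and -0.24 for WT host minus naive. The family then had 0 of 9 positive differences in sOVA host cells, from -1.53 to -0.31, and 5 of 9 in WT host cells. Calls over all features turned to 24 higher and 44 lower in sOVA host cells, against 53 and 19, and to 19 higher and 20 lower in WT host cells, against 44 and 20. Scaling to the median of the detected probes gave 4 positive members in sOVA host cells and 7 in WT host cells, with all-feature calls of 33 higher and 25 lower in WT host cells. Quantile normalization gave 4 and 8 positive members, with 34 higher and 28 lower calls in sOVA host cells. No member passed under any of these scalings.

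Because members share an array, their ratio does not depend on a scaling factor of that array. In sOVA host minus naive, miR-20a-5p had the lowest difference of the family and miR-93-5p the highest, so their ratio was chosen by these values and is given as a description, with no test. miR-93-5p relative to miR-20a-5p was 0.35, 0.63 and 0.69 in sOVA host cells, 0.31 and 0.16 in WT host cells, and -0.66 and -0.67 in naive cells, on the log2 scale. The mean ratio in sOVA host cells minus that in naive cells was 1.22, and that in WT host cells minus naive cells 0.90.

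Probes of different length for the same start gave a second view of the family, since a mature miRNA can end at more than one base. The targets below are of miR-17-5p at 24 and 22 bases and of miR-20b-5p at 21 bases.
UC1004783: cAAAGTGCttacagtgcaggtagt
UC1004784: cAAAGTGCttacagtgcaggta
UC1004817: cAAAGTGCtcatagtgcaggt
The 23-base miR-17-5p probe minus the 22-base one was 0.35, 0.46 and 0.90 log2 units in sOVA host cells, 0.73 and 0.93 in WT host cells, and 0.17 and 0.17 in naive cells. For miR-20b-5p, 23 minus 21 bases gave 0.96, 1.07 and 1.68 in sOVA host cells, 1.44 and 1.71 in WT host cells, and 0.65 and 0.62 in naive cells. UC1005011 minus its 22-base form UC1005010 gave 0.33, 0.45 and 0.98 in sOVA host cells, 0.73 and 1.02 in WT host cells, and 0.18 and 0.13 in naive cells. In each of these 3 pairs the longer probe stood higher over the shorter one on every host array than on the naive arrays.

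The 24-base miR-17-5p form UC1004783 stood below the 23-base one on every array. The longer minus the shorter was -0.15, -0.21 and -0.35 log2 units in sOVA host cells, -0.27 and -0.39 in WT host cells, and -0.08 and -0.16 in naive cells. The WT host arrays lay below the naive ones and the sOVA host arrays overlapped them. Against the 22-base form it gave 0.20, 0.26 and 0.55 in sOVA host cells, 0.46 and 0.54 in WT host cells, and 0.10 and 0.01 in naive cells.

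Over the 5 family pairs, 4 had host arrays above the naive arrays without overlap, in both host groups. Of the 32 such pairs outside the family, 40.6% did so for sOVA host and 50% for WT host. The median difference from naive was 0.40 log2 units for the family pairs in sOVA host cells and 0.66 in WT host cells. Outside the family it was 0.04 in sOVA host cells and 0.07 in WT host cells. The pairs share probes and were not tested. In the pairs of 23 against 22 bases, 23 against 21 bases and UC1005011 against UC1005010, the highest values of each host group were on its dim array, sOVA host replicate 3 and WT host replicate 2, and the part of array brightness was not tested.

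A hairpin yields 2 arms, and the other arms of the family hairpins did not carry the family seed. Of 5 tested, 1 rose in both host groups, miR-93-3p, where 15.5% of all features rose in sOVA host cells and 12.9% in WT host cells. It stood at -5.80, -5.67 and -5.41 in sOVA host cells, -5.72 and -5.54 in WT host cells, and -6.84 and -6.80 in naive cells. The log2 difference was 1.19 ± 0.25 for sOVA host minus naive (limma adjusted p = 0.0221) and 1.19 ± 0.27 for WT host minus naive (limma adjusted p = 0.0281). It was well above background on 2 of the 3 sOVA host arrays. The sOVA host call was lost under 5 other scaling, background and filter settings and when either naive array or sOVA host replicate 2 was left out. The WT host call was lost under the same settings and without any array other than sOVA host replicate 3. With 1 array left out at a time the difference itself stayed between 1.08 and 1.28 in sOVA host cells and between 1.099 and 1.28 in WT host cells. Where 1 naive array was left, its spread was taken from the other groups.

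miR-106b-3p, from the neighbouring hairpin, stood at -3.79, -3.55 and -3.21 in sOVA host cells, -3.49 and -3.28 in WT host cells, and -4.38 and -4.44 in naive cells. All host arrays lay above the naive ones, by 0.89 ± 0.27 in sOVA host cells (limma adjusted p = 0.0611) and 1.03 ± 0.30 in WT host cells (limma adjusted p = 0.0596). It passed in both host groups with slide row as a block (limma adjusted p = 0.0338 in sOVA host cells and 0.0362 in WT host cells). It also passed in both without sOVA host replicate 3 (limma adjusted p = 0.0401 and 0.0127). In WT host cells it also passed with only the groups compared (limma adjusted p = 0.0302). Of all 342 features, 125 and 109 passed with the row block and 126 and 158 without sOVA host replicate 3. With only the groups compared, 129 passed in WT host cells. The remaining 3 arms, of miR-17, miR-20a and miR-20b, ran from -0.34 to -0.04 for sOVA host minus naive and from -0.15 to 0.21 for WT host minus naive.

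The other seeds of the same clusters differed among themselves. All 4 tested features with the miR-18a seed rose in both host groups, by 1.24 to 1.38 log2 units in sOVA host cells and 1.96 to 2.12 in WT host cells. Over all features the shares that rose were 15.5% and 12.9%, as above. Among the 4, UC1004791 and UC1004793 matched no mouse miRNA, and whether they bind miR-18a-5p or miR-18b-5p was not tested. UC1004793 and the miR-18b-5p probe UC1004792 were each well above background on 2 of the 3 sOVA host arrays. On the naive arrays UC1004793 was so on 1 of 2. miR-18a-5p, encoded between miR-17 and miR-20a, stood at -1.65, -2.18 and -1.82 in sOVA host cells, -1.35 and -0.95 in WT host cells, and -3.22 and -3.07 in naive cells. The difference was 1.26 ± 0.28 for sOVA host minus naive (limma adjusted p = 0.0269) and 1.99 ± 0.31 for WT host minus naive (limma adjusted p = 0.00964). With 1 array left out at a time its difference stayed between 1.15 and 1.41 in sOVA host cells and between 1.79 and 2.19 in WT host cells. The calls did not hold without either naive array, with adjusted p of 0.198 and 0.177 in sOVA host cells and 0.0881 and 0.0722 in WT host cells by limma. Without sOVA host replicate 1 the adjusted p in sOVA host cells was 0.0735, and without WT host replicate 2 that in WT host cells was 0.0745. With the 75th percentile of all probes it was 0.651 in sOVA host cells and 0.19 in WT host cells, and with no detection filter 0.102 and 0.313. Median scaling (0.0589) and quantile normalization (0.0517) ended the call in sOVA host cells. Whether its change differed from that of its neighbours was not tested.

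Of 4 features with the miR-19b seed none passed. miR-19b-3p stood at 1.31, 1.01 and 0.66 in sOVA host cells, 1.42 and 1.496 in WT host cells, and 1.82 and 1.63 in naive cells, with differences of -0.74 ± 0.28 (limma adjusted p = 0.10) and -0.27 ± 0.31 (limma adjusted p = 0.534). Of 6 features with the miR-92a seed, miR-363-3p alone passed. miR-92a-3p stood at 0.11, 0.25 and 0.60 in sOVA host cells, 0.21 and 0.47 in WT host cells, and 0.70 and 0.68 in naive cells. Its differences were -0.37 ± 0.26 (limma adjusted p = 0.324) and -0.35 ± 0.29 (limma adjusted p = 0.406). A further 20 probes hold the family seed shifted by 1 base, and 0 were tested because none was detected throughout a group.

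The family's members did not follow each other closely. Over the 7 arrays the Pearson r between pairs of the 9 features ran from -0.45 to 0.99 with a median of 0.48 over 36 pairs. With miR-93-5p, which the naming rule picked by its mean signal, r was 0.853 for miR-106a-5p, 0.817 for UC1004812, 0.812 for UC1004985, 0.689 for UC1005011, 0.665 for miR-17-5p, 0.344 for miR-20b-5p, 0.069 for miR-106b-5p and -0.383 for miR-20a-5p. Outside the family the 5 highest values were 0.995 for miR-363-3p, 0.980 for UC1005610, 0.970 for UC1005051, 0.969 for UC1005050 and 0.968 for miR-18a-5p. These values describe 7 arrays in 3 groups that share a slide and a scaling.

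miR-363-3p belongs to the X-linked cluster of miR-106a and miR-20b and is 1 of the 6 features with the miR-92a seed. Its likeness to miR-93-5p over the same arrays gives its test no independent support. It stood at -2.53, -2.47 and -2.40 in sOVA host cells, -2.19 and -1.81 in WT host cells, and -3.56 and -3.69 in naive cells. It rose by 1.15 ± 0.24 in sOVA host cells (limma adjusted p = 0.023) and by 1.62 ± 0.27 in WT host cells (limma adjusted p = 0.0108). With 1 array left out at a time its difference stayed between 1.09 and 1.22 in sOVA host cells and between 1.44 and 1.81 in WT host cells. Without naive replicate 1 or 2 the adjusted p was 0.159 and 0.187 in sOVA host cells and 0.0881 and 0.0896 in WT host cells by limma. It was 0.058 and 0.063 in sOVA host cells without sOVA host replicate 1 or 2, and 0.0745 in WT host cells without WT host replicate 2. With the 75th percentile of all probes it was 0.776 in sOVA host cells and 0.364 in WT host cells, with median scaling 0.0695 and 0.0502, and with no detection filter 0.131 and 0.313. Quantile normalization gave 0.0688 in sOVA host cells. The 3 unnamed probes, UC1005610, UC1005051 and UC1005050, were chosen by their likeness to miR-93-5p over these arrays, so their values are a description with no test. UC1005610 stood at -5.91, -5.42 and -4.93 in sOVA host cells, -5.07 and -4.43 in WT host cells, and -7.49 and -7.53 in naive cells, and was well above background on 1 of the 2 naive arrays. UC1005051 stood at -3.36, -3.29 and -2.80 in sOVA host cells, -2.37 and -2.31 in WT host cells, and -5.03 and -4.83 in naive cells. UC1005050 stood at -2.97, -2.88 and -2.44 in sOVA host cells, -1.97 and -1.92 in WT host cells, and -4.70 and -4.37 in naive cells.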

How the data were processed

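The deposited scanner files of 7 arrays (Cy3, 1 colour, one slide) hold a processed signal intensity per spot, made with Agilent Feature Extraction 9.5.1.1 per the file headers and 10.6 per the submitters' processing notes. The intensities are background-subtracted by that software and not normalized between arrays. Targets were read as the reverse complement of the probe after removing 10 T bases and a leading G. Flagged outlier spots were dropped, log2 intensities of a probe's spots were averaged, and the 75th percentile of the 253 probes that every array detected (at least 50% of spots well above background) was subtracted per array. Nested probes of one start were merged into 1753 features, represented by the brightest, of which 342 were detected on every array of a group and were tested with limma 3.58.1 (R 4.3.3) on 3 group means, with Benjamini-Hochberg adjustment and a threshold of 0.05. The fit was tested on simulated data. Members follow from their sequence alone, but the family, the lists and the ratio to miR-20a-5p were chosen with earlier results of these data known. Every family probe is accounted for. Of the other cluster seeds the brightest tested feature is named, and of the rest the 5 features most like the brightest family feature by Pearson r. miR-93-3p, miR-106b-3p and miR-363-3p are named as arms or neighbours after their values were seen. Alternatives covered scaling, background correction, the detection filter, merging, slide row, replicate number and left-out arrays. Precision is limited by having only 7 arrays. The deposited table of values was not used, since it lists no family probe.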

Additional observations from a re-analysis of the deposited data

How the results depend on the processing

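No family feature passed in the 3 comparisons, and this held under every alternative except those that left out sOVA host replicate 3. Leaving out 1 array at a time gave 0 to 1 family calls for sOVA host and for WT host against naive cells and 0 between hosts. The family calls came without sOVA host replicate 3, where 126 of all 342 features were called for sOVA host and 158 for WT host. Leaving out both dim arrays left a single WT host array. There, sOVA host minus naive was -0.66 for miR-20a-5p and 0.62 for UC1004985. Same-numbered arrays did not deviate together in every pair (r from -0.60 to 0.35). These values cannot show whether the numbers pair the samples, since deviations mirror each other in groups of 2 and followed slide row. With the replicate block 0 family features passed, and features called over the array went to 104 for sOVA host against naive cells, 139 for WT host against naive cells and 27 between hosts, against 72, 64 and 0. Only sOVA host cells have a replicate 3, so the replicate block also takes that array out of the differences. Over all alternatives the array's calls ran from 12 to 151 for sOVA host and from 16 to 158 for WT host against naive cells, and from 0 to 65 between hosts. Without naive replicate 1 or 2 the array held 12 and 13 calls for sOVA host and 20 and 18 for WT host. The differences of miR-18a-5p, miR-363-3p and miR-93-3p kept their sign against naive cells when single arrays were left out, while calls were lost. Without a naive array, the lone one left is taken to vary like the other groups. With the replicate block miR-106b-3p passed in WT host cells (limma adjusted p = 0.0254). The 8 pairs of arrays from different groups in the same slide row had r from 0.18 to 0.61 and the 8 in different rows from -0.61 to -0.18. Within a group of 2 the deviations mirror each other, so these values are not independent. With slide row as a block the array held 125 calls for sOVA host and 109 for WT host against naive cells, 0 between hosts and 0 in the family.

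The 75th percentile of all probes shifts every feature by one amount, -0.82 for sOVA host and -0.51 for WT host minus naive, and by construction changes signs within it. For the other settings the cause of a changed sign was not tested. With that percentile, sOVA host minus naive became -0.82 for miR-17-5p, -0.79 for UC1005011, -0.66 for UC1004812, -0.62 for miR-106a-5p, -0.33 for UC1004985 and -0.31 for miR-93-5p. WT host minus naive became -0.0071 for miR-17-5p, -0.16 for miR-20b-5p, -0.31 for miR-106b-5p, -0.46 for miR-17-3p and -0.30 for miR-20b-3p. With median scaling, sOVA host minus naive was -0.094 for miR-17-5p and -0.066 for UC1005011. WT host minus naive was -0.060 for miR-106b-5p, -0.21 for miR-17-3p and -0.056 for miR-20b-3p, and sOVA host minus WT host 0.14 for UC1004985. With quantile normalization, sOVA host minus naive was -0.052 for miR-17-5p and -0.0043 for UC1005011, and WT host minus naive 0.094 for miR-19b-3p and -0.27 for miR-20b-3p. With normexp, sOVA host minus naive was 0.12 for miR-20a-3p and 0.34 for miR-20b-3p, and WT host minus naive 0.19 for miR-20a-3p. The replicate block takes sOVA host replicate 3 out of the differences, and its values equalled those without that array. With the block, and equally without sOVA host replicate 3 or both dim arrays, sOVA host minus naive was -0.035 for miR-17-5p and -0.031 for UC1005011. It was 0.10 for miR-106b-5p and miR-20b-3p and 0.042 for miR-17-3p. UC1004985 between hosts was 0.10 with the block and 0.12 without both dim arrays. Leaving out 1 array at a time gave -0.054 to 0.054 for miR-17-5p, -0.031 to 0.079 for UC1005011, -0.37 to 0.10 for miR-106b-5p, -0.21 to 0.042 for miR-17-3p and -0.15 to 0.10 for miR-20b-3p in sOVA host against naive cells, and -0.13 to 0.10 for UC1004985 between hosts.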
